A study of Mus musculus with 8 samples.

Results

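The EGF family ligands Areg, Ereg, Hbegf, Tgfa, Btc, Egf, Nrg1 and Epgn were followed through the cells of the distal colonic mucosa of the mouse. The 8 genes were chosen by symbol among the 31053 genes of the count matrix, and all 8 were found. The data are single-cell libraries of transcript 3′ ends, made in droplets from 8 mice aged 8 weeks. The 4 mice labelled KO (mice 2, 3, 6 and 7) were homozygous for a floxed Spry2 gene and carried Cre recombinase under the villin (Vil1) promoter, which drives expression in the intestinal epithelium. The 4 mice labelled WT (mice 1, 4, 5 and 8) were littermates with the same floxed alleles and no Cre, so that both groups carried floxed Spry2. The authors sorted the cells into 11 classes and, for part of them, into subtypes, and these were used to ask which cells supplied each ligand and whether the genotypes differed.

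Ligands of the EGF family are made as membrane-anchored precursors and are released by sheddases such as ADAM17. They bind receptors of the ERBB family: amphiregulin (Areg), TGF-alpha (Tgfa), EGF and epigen (Epgn) bind EGFR, heparin-binding EGF (Hbegf), betacellulin (Btc) and epiregulin (Ereg) bind EGFR and ERBB4, and neuregulin 1 (Nrg1) binds ERBB3 and ERBB4. In the intestine EGFR signalling sustains crypt proliferation and repair after injury, and Sprouty2, the product of Spry2, restrains signalling downstream of receptor tyrosine kinases.

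The matrix held 53080 cells, with 17.0 to 37.3 M (mega) UMIs per mouse (unique molecular identifiers, each counting 1 captured transcript). Levels are given as CPM, the UMIs of a gene in the summed cells of a type in a mouse, scaled to a total of 1000000 UMIs, and types were set side by side in mice with 20 or more cells of them. Spry2 itself did not mark the genotypes: epithelial sums had 10.4, 13.3, 15.7 and 49.3 CPM of Spry2 in KO-labelled mice 2, 3, 6 and 7, against 11.2, 17.6, 27.7 and 37.6 CPM in WT-labelled mice 1, 4, 5 and 8 (exact permutation p = 0.857, two-sided, n = 4 each). Which exon is floxed is not stated in the labels, and a 3′ tag that lies outside the deleted piece checks nothing, so the mice are called by their labels. Of the epithelial cells, 79.6, 69.0, 18.5 and 13.6% had 50% or more mitochondrial UMIs in KO-labelled mice 2, 3, 6 and 7, against 78.8, 53.5, 37.2 and 11.1% in WT-labelled mice 1, 4, 5 and 8. The median UMIs per cell were 1793, 1652, 2862 and 2146 in KO-labelled mice 2, 3, 6 and 7, against 1505, 1811, 3275 and 3355 in WT-labelled mice 1, 4, 5 and 8. Under both labels, mice 1 to 4 thus had lower depth and a higher mitochondrial share than mice 5 to 8. What lies behind this split was not tested. A total of 356 cell barcodes occurred in more than 1 library. Marker lists led in the class or subtype of their own name, except for dendritic and stem-progenitor cells. The 33 dendritic cells came after macrophages on their markers, 1 of which was at 0. The cells named stem-progenitor ranked 3 among the epithelial subtypes on stem-cell markers, and 0 of these 4 markers were highest in them. On colonocyte markers they came next after enterocytes, at 3407 against 6923 summed CPM. The authors named epithelial subtypes in 6502 of 13229 epithelial cells of WT-labelled mice and in 0 of 10558 of KO-labelled mice. Epithelial cells of both genotypes were therefore also described by the authors' clusters, a step added after seeing the data. Of the WT-labelled cells with a name, cluster 5 held 91.9% stem-progenitor cells and cluster 4 held 99.7% enterocytes (absorptive colonocytes). Cluster 14 was a mixture, with 414 stem-progenitor and 402 secretory-progenitor cells among 1109 named ones.

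Among these genes, Epgn, Ereg, Areg and Btc lie next to each other on mouse chromosome 5, within 375.5 kb from 91027464 to 91402994 on mm10. Epgn, Ereg and Areg are on the plus strand and Btc on the minus strand. The promoters of Epgn, Areg and Btc are shown because these neighbours reached very different UMI counts in the same epithelial cells, 10 for Epgn and 29309 for Areg, with Btc between them. Each run covers 250 bases before to 50 after the start of the gene, from RefSeq on GRCm38.p6, at chr5:91027267-91027566 for Epgn (plus strand), chr5:91139349-91139648 for Areg (plus strand) and chr5:91402945-91403244 for Btc (minus strand). Capitals mark the letters TGACG, the shorter form of the cyclic AMP response element, found on either strand, and the letters TATAA, a core promoter element, on the strand of the gene.
Epgn: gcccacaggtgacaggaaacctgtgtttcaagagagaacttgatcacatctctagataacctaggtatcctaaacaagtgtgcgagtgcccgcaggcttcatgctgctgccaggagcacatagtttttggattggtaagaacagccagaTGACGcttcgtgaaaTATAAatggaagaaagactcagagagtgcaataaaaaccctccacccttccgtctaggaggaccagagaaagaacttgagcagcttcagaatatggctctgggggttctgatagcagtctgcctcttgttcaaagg
Areg: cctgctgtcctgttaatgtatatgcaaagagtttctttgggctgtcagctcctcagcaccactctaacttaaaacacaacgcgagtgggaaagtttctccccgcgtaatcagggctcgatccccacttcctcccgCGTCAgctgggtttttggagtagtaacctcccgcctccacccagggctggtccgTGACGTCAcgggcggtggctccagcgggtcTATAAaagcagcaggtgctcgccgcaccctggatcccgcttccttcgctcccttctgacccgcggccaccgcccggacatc
Btc: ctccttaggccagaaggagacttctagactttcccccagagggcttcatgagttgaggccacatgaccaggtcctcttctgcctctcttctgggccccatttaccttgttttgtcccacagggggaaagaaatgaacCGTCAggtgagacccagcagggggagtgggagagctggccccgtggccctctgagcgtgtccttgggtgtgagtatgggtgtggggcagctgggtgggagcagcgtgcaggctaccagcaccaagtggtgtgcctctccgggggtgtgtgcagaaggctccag
The Areg promoter holds the full palindrome TGACGTCA, which begins at position -61, and a TATAA at -31, counted with the first base of the gene as 0, besides 3 matches of TGACG on either strand, 2 of them within the palindrome. The letters TGACGTCA occur in 588 of 32851 promoters of the same length (1.79%), TGACG on either strand in 20.8% and TATAA in 17.5%, and the palindrome holds TGACG on both strands. The Epgn promoter has 1 TGACG at -101 and a TATAA at -86. Its RefSeq start lies downstream of the Epgn start at 91027464 given above, so these positions are not counted from that base. The Btc promoter has 1 match at -113, on the reverse strand, and no TATAA. These matches describe letters only. A RefSeq promoter entry was also found for Tgfa and Egf, so that 5 of the 8 genes had one.

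Areg, Hbegf, Tgfa, Btc and Egf lay mostly in epithelium, and Ereg and Nrg1 lay mostly in fibroblasts. Outside the cells named doublets, 33107 UMIs of Areg, 43050 of Hbegf, 1222 of Tgfa, 591 of Btc, 293 of Egf, 1318 of Ereg, 505 of Nrg1 and 13 of Epgn were counted. Epithelium held 88.5% of the Areg UMIs, 96.7% of those of Hbegf, 95.01% of Tgfa, 77.5% of Btc and 59.7% of Egf, with 46.0% of the cells. Fibroblasts held 86.6% of the Ereg and 83.4% of the Nrg1 UMIs with 12.1% of the cells. These are shares pooled over 8 mice. In single mice the epithelial share of Areg ran from 65.2 to 97.5% and the T cell share from 2.26 to 32.8%. These shares depend on how many cells of each class were recovered, and the cell classes were drawn by the authors from the same transcripts, so that levels between types are given as a description without a test. More UMIs in a summed type can come from more RNA of the gene per cell or from more cells that hold it, which the sums alone cannot tell apart.

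**Figure D1:**
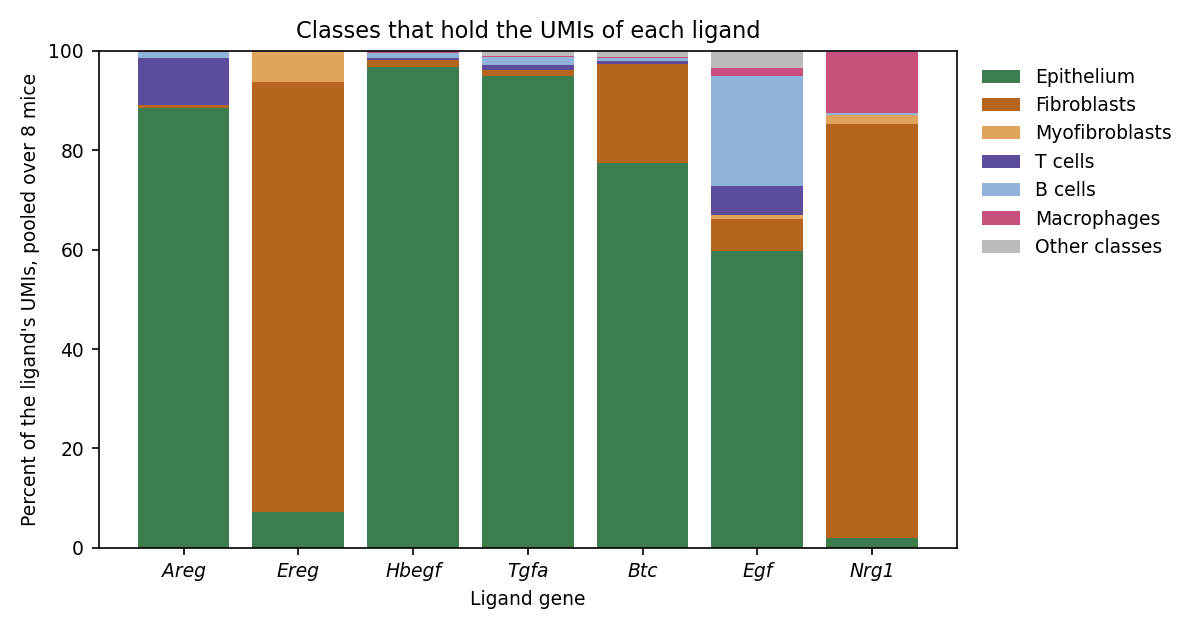
Percent of each ligand's UMIs (vertical axis, pooled over 8 mice, doublets left out) that lay in each of the authors' classes, with 1 bar per ligand gene. Epithelium fills most of the bars of Areg, Hbegf, Tgfa, Btc and Egf, and fibroblasts fill 86.6% of the Ereg bar and 83.4% of the Nrg1 bar.

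**Figure D2:**
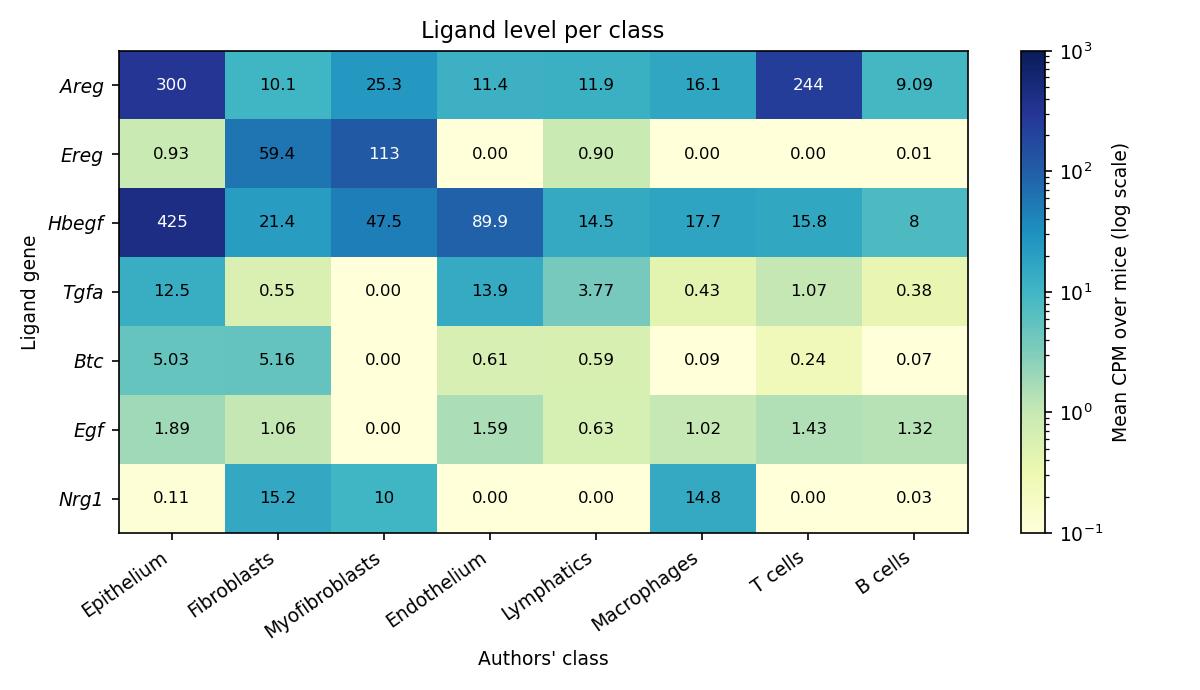
Mean CPM over the mice with 20 or more cells of a class (colour on a log scale, value printed in each cell; values under 0.1 share the palest colour) for 7 ligands (rows) in 8 classes (columns). Areg is high in epithelium and T cells, Hbegf in epithelium, and Ereg in fibroblasts and myofibroblasts.

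Areg, whose product amphiregulin is a low-affinity EGFR ligand tied to tissue repair, was supplied in bulk by the epithelium. Its level in epithelial sums was 201, 242, 328 and 326 CPM in KO-labelled mice 2, 3, 6 and 7, against 158, 304, 266 and 576 CPM in WT-labelled mice 1, 4, 5 and 8. Mouse 8 was the highest and mouse 1 the lowest, and the groups overlapped. Over all 8 mice epithelium averaged 300.1 ± 126.7 CPM and T cells 243.7 ± 150.7 CPM (SD), with epithelium the higher of the pair in 7 of 8 mice. All other classes with 20 or more cells in at least 3 mice were lower than epithelium in every mouse, and their means lay between 9.09 CPM in B cells and 25.3 CPM in myofibroblasts. In B cells Areg stood at 2.55% of its epithelial level, while 5 epithelial marker genes stood at 2.22 to 4.50% of theirs. The part of free epithelial RNA in the B cell level was not tested. An Areg UMI was seen in 27.1 ± 14.5% of epithelial cells (median 1743 UMIs per cell) and 2.53 ± 1.62% of B cells (median 1994). With each cell thinned to 1000 UMIs, these shares were 15.2 ± 6.53% and 1.07 ± 0.64%; 5689 epithelial and 1962 B cells below 1000 UMIs were left out.

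Within the epithelium Areg was highest in the cells of cluster 5. Cluster 5 held 71.5% of the epithelial Areg UMIs with 15.4% of the epithelial cells. Its cells were deep, at a median of 7584 UMIs against 1743 in all epithelium, so that they also held more UMIs of any gene. Pooled over mice, Areg was at 580 CPM in cluster 5 and 331 CPM in all epithelium. Per mouse the Areg level of cluster 5 was 472, 474, 472 and 419 CPM in KO-labelled mice 2, 3, 6 and 7, against 323, 601, 470 and 777 CPM in WT-labelled mice 1, 4, 5 and 8. The KO-labelled values lay close together, inside the wider range of the WT-labelled ones. In cluster 4, the enterocyte cluster, Areg averaged 362.3 ± 59.5 CPM over 8 mice, and cluster 5 was higher than cluster 4 in 7 of 8 mice, with ratios of 0.89 to 1.82. Cluster 14 stood at 146.3 ± 42.1 CPM and was below cluster 5 in 8 of 8 mice. Among the subtypes named in WT-labelled mice, Areg averaged 410.6 ± 213.4 CPM in stem-progenitor cells and 348.5 ± 73.1 CPM in enterocytes (SD, n = 4). In secretory cells it was lower: 129.8 ± 26.1 CPM in goblet cells (n = 3), which make mucus, 105.1 ± 35.9 CPM in secretory progenitors (n = 4), 81.3 ± 27.2 CPM in the deep crypt secretory cells (n = 4) and 32.0 ± 29.9 CPM in tuft cells (n = 2), the chemosensory cells of the epithelium. Mitochondrial UMIs count in the totals behind CPM, which lowers the level in clusters rich in them. Cluster 3, with a median of 86.2% mitochondrial UMIs, had 21.7 ± 16.5 CPM of Areg over all UMIs and 183.8 ± 138.5 CPM over UMIs outside the mitochondrial genome, a scaling added after seeing the data (SD, n = 8). Cluster 8, with a median of 57.7%, had 132.0 ± 66.4 CPM over all UMIs and 366.3 ± 211.0 CPM outside. Cluster 5 was at 634.4 ± 150.5 CPM and cluster 4 at 548.2 ± 64.1 CPM on that scale, cluster 14 at 171.6 ± 52.0 CPM, and cluster 18, nearly free of mitochondrial UMIs, at 116.3 ± 82.9 CPM (n = 7). The share of epithelial cells in cluster 5 also varied between mice, at 4.32, 8.57, 23.1 and 32.2% in KO-labelled mice 2, 3, 6 and 7 against 8.02, 10.2, 20.04 and 44.8% in WT-labelled mice 1, 4, 5 and 8. Under both labels mice 5 to 8 were above mice 1 to 4 in this share. Mouse 8 was highest both in this share and in the epithelial level of Areg, and the part of the share in that level was not tested.

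The highest Areg level of any subtype was that of the group 2 innate lymphoid cells (ILC2), which the authors placed among the T cells. ILC2 are tissue-resident lymphocytes of type 2 immunity and a known source of amphiregulin. Areg reached 823, 1280.3, 1958 and 1615 CPM in ILC2 of KO-labelled mice 2, 3, 6 and 7, against 430, 1043, 1505 and 1763 CPM in WT-labelled mice 1, 4, 5 and 8. Every ILC2 value was above the epithelial value of the same mouse, by 2.72 to 5.97 times. Pooled over mice, ILC2 held 6.74% of all Areg UMIs with 0.972% of the cells, and 72.5% of the Areg UMIs of the T cell class. The ILC2 share of all Areg UMIs varied widely between mice. It was 2.64, 6.77, 19.9 and 25.1% in KO-labelled mice 2, 3, 6 and 7, against 3.22, 4.63, 5.33 and 0.970% in WT-labelled mice 1, 4, 5 and 8. An Areg UMI was found in 43.0 ± 10.7% of ILC2 (33.2 ± 8.62% after thinning to 1000 UMIs; median depth 2871 UMIs), against 1.88 ± 1.68% of memory T cells (0.70 ± 0.58% after thinning; median depth 2744 UMIs). Epithelial markers stood at 2.20 to 3.30% of their epithelial level in ILC2, and Areg at 446% of its own. The ratio of Areg to Hbegf UMIs was 89.2 in ILC2 and 0.70 in epithelium.

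Regulatory T cells (Tregs) are another known source of amphiregulin. Areg was at 297, 154, 259 and 329 CPM in Tregs of KO-labelled mice 2, 3, 6 and 7, against 343, 282 and 160 CPM in WT-labelled mice 1, 4 and 5; mouse 8 had 19 Tregs and was not used. ILC2 exceeded Tregs in 7 of 7 mice. Intraepithelial lymphocytes (IELs) spread widely, with 183, 56.9 and 378 CPM in KO-labelled mice 2, 6 and 7 against 52.9, 64.1 and 1112 CPM in WT-labelled mice 4, 5 and 8, so that the mean of 307.9 ± 413.5 CPM rests on mouse 8. It lay above the Treg mean of 260.5 CPM, but IELs were above Tregs in 1 of the 5 mice with both. Of the 235 Areg UMIs in 302 IELs 86 lay in 1 cell, and 43 cells held any. Over all mice Areg in IELs was 92.7% of its epithelial level, a value that rests on these few cells, while the epithelial markers stood at 0.312 to 2.94% of theirs. Activated T cells had 7.59 ± 7.28 CPM and memory T cells 7.07 ± 5.78 CPM. Areg stood at 2.08% of its epithelial level in activated T cells, where the epithelial markers stood at 2.22 to 16.9% of theirs, and at 1.89% in memory T cells, where the markers stood at 1.16 to 3.20%. T cells that the authors named inactive stood at 19.8% of the epithelial Areg level, just above the 10.3 to 18.9% at which epithelial markers stood in the same cells.

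**Figure D3:**
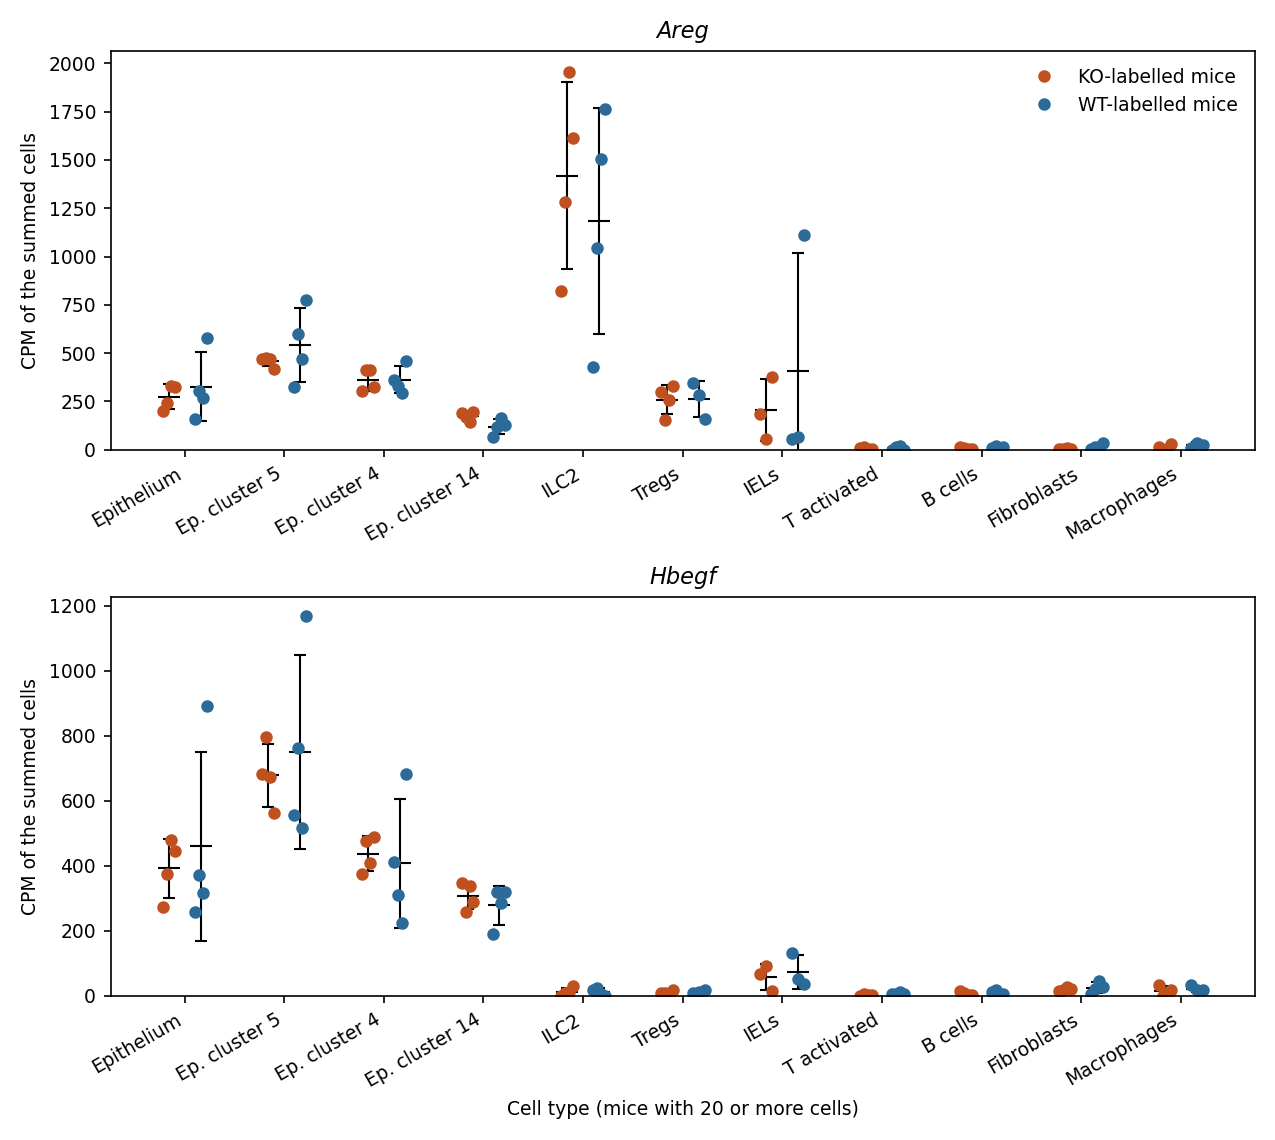
CPM of Areg (top) and Hbegf (bottom) in the summed cells of each type, with 1 point per mouse that had 20 or more cells of the type, KO-labelled mice left and WT-labelled mice right, and black bars for the mean and SD (cut at 0). Areg peaks in ILC2 and is also present in the epithelial clusters, while Hbegf is highest in the epithelial sets.

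Hbegf encodes heparin-binding EGF, a ligand made in response to injury and growth factor signals. Epithelium was its leading class, at 272, 373, 478 and 445 CPM in KO-labelled mice 2, 3, 6 and 7, against 259, 372, 315 and 889.8 CPM in WT-labelled mice 1, 4, 5 and 8. Mouse 8 was again the highest, and the other 7 mice lay between 259 and 478 CPM. Endothelium followed at 89.9 ± 41.6 CPM (SD, n = 6) and was below epithelium in 6 of 6 mice. Hbegf in endothelium was 23.7% of its epithelial level, above the 3.45 to 6.12% of the epithelial markers, and the ratio of Areg to Hbegf UMIs was 0.0941 there. In the 42 glial cells, 19 cells held 36 Hbegf UMIs, or 347 CPM over all mice, while their Areg count was 0, which allows up to 28.9 CPM. B cells, at 8.00 ± 5.97 CPM, had 1.73% of the epithelial Hbegf level, under the range of epithelial markers in them. A UMI of Hbegf was seen in 31.5 ± 16.8% of epithelial cells and 1.90 ± 0.93% of B cells, and in 19.3 ± 9.59% and 0.90 ± 0.59% after thinning to 1000 UMIs.

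Cluster 5 also led the epithelial clusters in Hbegf. It held 71.3% of the epithelial Hbegf UMIs, in cells of the greater depth given above. Pooled over mice, Hbegf was at 822 CPM in cluster 5 and 470 CPM in all epithelium. Per mouse Hbegf in cluster 5 was at 681, 795, 673 and 561 CPM in KO-labelled mice 2, 3, 6 and 7, against 557, 761, 515 and 1169 CPM in WT-labelled mice 1, 4, 5 and 8. Cluster 4 averaged 421.6 ± 136.2 CPM, and cluster 5 was above it in 8 of 8 mice by 1.15 to 2.46 times. Clusters 6 and 8, rich in mitochondrial UMIs, had 142.7 ± 165.0 and 191.9 ± 121.8 CPM over all UMIs. Over UMIs outside the mitochondrial genome they had 585.9 ± 632.0 and 535.8 ± 373.3 CPM. On that scale cluster 5 was at 905.9 ± 237.1 CPM and cluster 4 at 633.2 ± 163.8 CPM (SD, n = 8), so that the spreads of these clusters overlapped. By name, Hbegf averaged 652.6 ± 307.8 CPM in stem-progenitor cells, 400.9 ± 201.4 CPM in enterocytes, 174.5 ± 39.4 CPM in secretory progenitors and 43.0 ± 24.8 CPM in deep crypt secretory cells (SD, n = 4 WT-labelled mice each). In cluster 5, 2252 cells held UMIs of both ligands: Areg was seen in 78.0% of the 2886 cells with an Hbegf UMI (median 8693 UMIs per cell) and in 30.2% of the 776 cells without one (median 4886). The cells with Hbegf were deeper, and the part of depth in this overlap was not tested.

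Tgfa, which encodes TGF-alpha, a ligand best known from differentiated epithelium, was sparse. Its level in epithelium was 7.13, 9.86, 12.5 and 17.9 CPM in KO-labelled mice 2, 3, 6 and 7, against 10.2, 10.2, 12.5 and 19.6 CPM in WT-labelled mice 1, 4, 5 and 8. Mice 7 and 8 stood highest, mice 5 to 8 were above mice 1 to 4 under both labels, and the KO-labelled and WT-labelled groups overlapped. Endothelium had the same order of level, 13.9 ± 15.3 CPM (SD, n = 6), but from 9 UMIs, with 0 in 2 of the 6 mice, and was above epithelium in 2 of 6 mice; all other classes were at 3.77 CPM or less. Tgfa was seen in 0.94 ± 0.49% of epithelial cells thinned to 1000 UMIs and 0.04 ± 0.04% of B cells (5.10 ± 3.84% and 0.11 ± 0.12% before thinning). Cluster 5 held 63.5% of the epithelial Tgfa UMIs, at 19.8 ± 3.07 CPM, above the 12.1 ± 4.59 CPM of cluster 4 in 7 of 8 mice. In named cells, Tgfa was at 19.4 ± 3.89 CPM in stem-progenitor cells (n = 4) and at 0, 14.7 and 48.6 CPM in goblet cells of WT-labelled mice 4, 5 and 8, where 21 UMIs were counted.

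Egf, the founding member of the family, had 175 UMIs in epithelium, most of them in 1 cluster. Cluster 14 held 127 of them, 72.6%, with 7.21% of the epithelial cells. Egf in cluster 14 was at 19.7, 6.68, 4.87 and 7.76 CPM in KO-labelled mice 2, 3, 6 and 7, against 11.1, 6.65, 7.77 and 5.02 CPM in WT-labelled mice 1, 4, 5 and 8. Cluster 14 was above cluster 5 in 8 of 8 mice, by 3.70 to 22.7 times. By name the level was highest in secretory progenitors, which held 65 UMIs. They had 23.5, 14.2, 15.3 and 8.66 CPM in WT-labelled mice 1, 4, 5 and 8. The other named subtypes with UMIs were lower, at 4.89 ± 1.37 CPM in goblet cells (n = 3, from 5 UMIs), 1.44 ± 0.91 CPM in stem-progenitor cells (n = 4, from 39 UMIs), 1.27 ± 2.55 CPM in deep crypt secretory cells (n = 4) and 0.26 ± 0.31 CPM in enterocytes (n = 4). An Egf UMI was found in 12.4 ± 5.29% of secretory progenitors (median 8024 UMIs) and 0.10 ± 0.11% of enterocytes (median 2258 UMIs), without thinning. In stem-progenitor cells, which were nearer in depth (median 9138 UMIs), the share was 1.51% of cells pooled over mice. As a class, epithelium averaged 1.89 ± 0.65 CPM, B cells 1.32 ± 1.00 CPM and T cells 1.43 ± 0.75 CPM. Epithelium was above B cells in 5 of 8 mice, so that these classes were not ordered in CPM over all UMIs, mitochondrial ones included. Mature B cells held 49 Egf UMIs, and their level was 97.1% of the epithelial one, while epithelial markers stood at 3.54 to 7.32%. Dendritic cells held 8 Egf UMIs in 33 cells, all from WT-labelled mice 1 and 5. That was 2251% of the epithelial level over all mice, a value that rests on these few UMIs.

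Btc, which encodes betacellulin, was supplied by both epithelium and fibroblasts, at about 1 level in CPM over all UMIs, mitochondrial ones included. Epithelium had 2.52, 3.77, 7.53 and 6.49 CPM of Btc in KO-labelled mice 2, 3, 6 and 7, against 3.36, 4.52, 6.28 and 5.79 CPM in WT-labelled mice 1, 4, 5 and 8. Under both labels these epithelial values were higher in mice 5 to 8 than in mice 1 to 4. Fibroblasts had 1.36, 3.15, 6.48 and 6.30 CPM in KO-labelled mice 2, 3, 6 and 7, against 8.96, 4.04, 4.63 and 6.38 CPM in WT-labelled mice 1, 4, 5 and 8. The mean was 5.16 ± 2.36 CPM in fibroblasts and 5.03 ± 1.75 CPM in epithelium, and fibroblasts were above epithelium in 2 of 8 mice; the difference was within the spread over mice. All other classes of 3 or more mice were at 0.61 CPM or less. A Btc UMI was found in 1.78 ± 0.89% of fibroblasts (median 4036 UMIs) and 2.09 ± 1.56% of epithelial cells (median 1743 UMIs), against 0.02 ± 0.04% of B cells (median 1994 UMIs). The 42 glial cells held 6 Btc UMIs, or 1262% of the fibroblast level over all mice, a value that rests on these few UMIs. Within the epithelium, Btc was at 12.2 ± 4.03 CPM in cluster 14 and 5.71 ± 1.89 CPM in cluster 5 (SD, n = 8), with cluster 14 the higher in 7 of 8 mice. In named cells it was at 19.4 ± 9.76 CPM in goblet cells (n = 3), 9.73 ± 4.92 CPM in secretory progenitors (n = 4) and 2.78 ± 1.00 CPM in enterocytes (n = 4).

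Epgn, which encodes epigen, was close to absent. It had 13 UMIs in all, of which 10 lay in epithelium and 1 each in fibroblasts, myofibroblasts and T cells. The epithelial level was 0.15 ± 0.11 CPM in KO-labelled mice and 0.07 ± 0.09 CPM in WT-labelled mice (SD, n = 4 each), from 5 UMIs in each group, and no supplier can be named at this depth.

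Ereg, which encodes epiregulin, lay in the stroma, in 1 fibroblast subtype above all. Fibroblasts as a class had 20.7, 16.6, 65.3 and 107 CPM of Ereg in KO-labelled mice 2, 3, 6 and 7, against 8.27, 22.5, 43.9 and 191 CPM in WT-labelled mice 1, 4, 5 and 8. The make-up of the class varied too. The subtype that the authors named CD90-pos, Igfbp3 made up 10.3, 9.34, 41.5 and 31.5% of fibroblasts in KO-labelled mice 2, 3, 6 and 7, against 3.78, 13.2, 49.8 and 87.2% in WT-labelled mice 1, 4, 5 and 8. Under both labels mice 5 to 8 were above mice 1 to 4 both in this share and in the Ereg level. Mouse 8 was highest and mouse 1 lowest in both, and the part of the share in the level was not tested. Within that subtype Ereg was at 142, 113, 149 and 256 CPM in KO-labelled mice 2, 3, 6 and 7, against 125, 76.7 and 201 CPM in WT-labelled mice 4, 5 and 8. The groups overlapped, and mouse 1, with 15 such cells, was not used. The larger subtype named CD90-pos averaged 4.05 ± 2.00 CPM (SD, n = 8). CD90-pos, Igfbp3 cells were above CD90-pos cells in 7 of 7 mice, by 18.9 to 64.0 times in the 6 mice in which both held UMIs. They supplied 76.7% of all Ereg UMIs with 3.22% of the cells. An Ereg UMI was found in 29.1 ± 5.68% of CD90-pos, Igfbp3 cells (11.1 ± 3.47% after thinning to 1000 UMIs; median depth 4290 UMIs) and in 1.31 ± 0.68% of CD90-pos cells (0.39 ± 0.23% after thinning; median depth 3886 UMIs).

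Myofibroblasts, the contractile cells around the crypts, also held Ereg. They reached 145 and 101 CPM in KO-labelled mice 6 and 7 and 94.03 CPM in WT-labelled mouse 5, the 3 mice with 20 or more of these cells. Their mean of 113.4 ± 27.3 CPM made them the leading class, above fibroblasts in 2 of the 3 mice. Fibroblast markers stood at 6.03 to 27.9% of their fibroblast level in myofibroblasts, and Ereg at 237% of its own. Smaller fibroblast subtypes held Ereg too: the 47 cells named CD90-neg, Sox6-Bmp had 23 Ereg UMIs in 19 cells, or 135.4 CPM over all mice, and the 116 fibroblasts named MSCs had 23 in 5 cells, or 43.5 CPM. All 23 Ereg UMIs of the MSCs came from KO-labelled mouse 7. WT-labelled mouse 5 alone had 20 or more CD90-neg, Sox6-Bmp cells (26 cells with 11 Ereg UMIs). Epithelium held 94 Ereg UMIs at 0.93 ± 0.54 CPM, 66 of them in cluster 5. No Ereg UMI was seen in 659 macrophages or 5434 T cells, which allows up to 0.74 and 0.23 CPM, and B cells held 1.

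Nrg1, the ligand of the receptors ERBB3 and ERBB4, had most of its UMIs in the same fibroblast subtype. CD90-pos, Igfbp3 cells had 24.5, 22.5, 25.6 and 118 CPM of Nrg1 in KO-labelled mice 2, 3, 6 and 7, against 55.1, 58.6 and 13.7 CPM in WT-labelled mice 4, 5 and 8. KO-labelled mouse 7 stood apart from the other 6 mice, and the groups overlapped. The subtype supplied 75.4% of all Nrg1 UMIs. CD90-pos fibroblasts had 7 Nrg1 UMIs in 4424 cells, or 0.26 ± 0.38 CPM (SD, n = 8), of which KO-labelled mice 2, 3 and 6 held 2, 4 and 1 and the other mice 0. The 116 fibroblasts named MSCs held 23 UMIs, 18 of them in mouse 7. The 47 CD90-neg, Sox6-Bmp fibroblasts held 10 Nrg1 UMIs, 8 of them in mouse 5. In percent of the level of all fibroblasts Nrg1 was at 357% in these cells and 264% in MSCs. Nrg1 was concentrated in few cells: 119 of 1667 CD90-pos, Igfbp3 cells held its 381 UMIs, at 3.20 UMIs per cell with 1 and up to 23 in 1 cell. Of these 119 cells 49.6% also held an Ereg UMI (median 4895 UMIs per cell), against 25.7% of the 1548 cells without Nrg1 (median 4239 UMIs). The share with Ereg was higher among Nrg1-positive cells in each of the 7 mice that had any, for example 70.6% against 31.1% in KO-labelled mouse 7 and 36.0% against 15.9% in WT-labelled mouse 5. Several of these mice had few Nrg1-positive cells: 7, 4, 13 and 34 in KO-labelled mice 2, 3, 6 and 7, and 9, 50 and 2 in WT-labelled mice 4, 5 and 8. The part of depth in this overlap was not tested.

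Macrophages were the second source of Nrg1. They held 62 Nrg1 UMIs in 659 cells, at 18.6, 0, 46.0 and 12.1 CPM in KO-labelled mice 2, 3, 6 and 7, against 6.35, 16.6 and 3.92 CPM in WT-labelled mice 1, 4 and 5. Their mean of 14.8 ± 15.3 CPM (n = 7) did not differ beyond the spread over mice from the 15.2 ± 17.5 CPM of all fibroblasts (n = 8), and fibroblasts were above macrophages in 3 of 7 mice. Nrg1 in macrophages was 93.2% of its fibroblast level while fibroblast markers stood at 0.76 to 1.05% of theirs. The Nrg1 value rests on 27 macrophages with a UMI, 1 of which held 16, and mouse 6 had the highest level. An Nrg1 UMI was seen in 6.50 ± 3.53% of CD90-pos, Igfbp3 cells and 4.33 ± 3.38% of macrophages (median 4290 and 5352 UMIs), against 0.08 ± 0.12% of CD90-pos fibroblasts (median 3886 UMIs). T cells and endothelium had 0 UMIs, which allows up to 0.23 and 3.93 CPM.

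**Figure D4:**
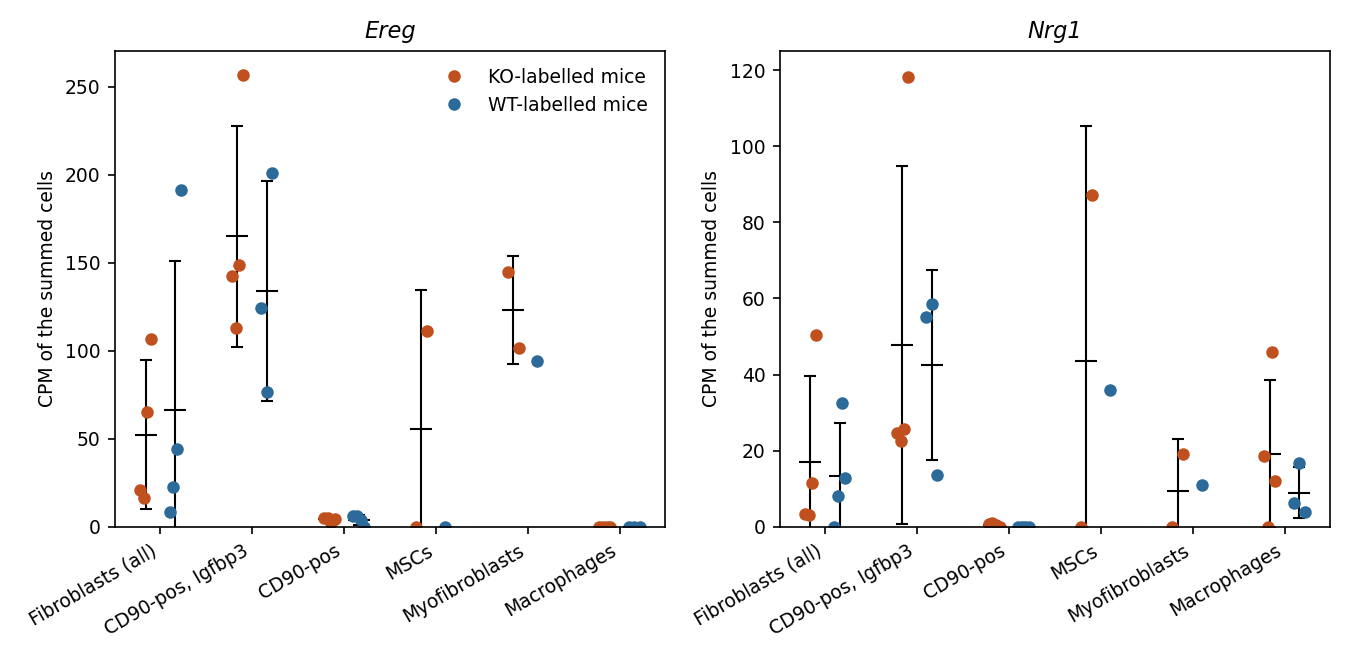
CPM of Ereg (left) and Nrg1 (right) in fibroblasts, their subtypes, myofibroblasts and macrophages, with 1 point per mouse that had 20 or more cells, KO-labelled mice left and WT-labelled mice right, and black bars for the mean and SD (cut at 0). Both ligands are high in the CD90-pos, Igfbp3 subtype and near 0 in the CD90-pos subtype, and Nrg1 alone is also seen in macrophages.

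The genotypes were compared to ask whether deletion of Spry2 in the epithelium is accompanied by other ligand levels in any cell type. No ligand passed the test. Of the 8 ligands 7 could be tested in at least 1 class, in 15 ligand and class pairs, and 0 of 15 passed edgeR's quasi-likelihood test at an adjusted p of 0.05 (the lowest was 0.9999). At an unadjusted p of 0.05 there were also 0 of 15, and by DESeq2 0. Over all genes of the 7 classes edgeR called 0.021% of 52261, namely 0% of 11723 in epithelium, 0% of 11023 in fibroblasts, 0% of 10444 in B cells, 0% of 8706 in T cells, 0% of 1533 in endothelium, 0.111% of 5407 in macrophages and 0.146% of 3425 in lymphatics. In the 11 subtypes 0 of 12 ligand pairs were called, against 0.00194% of all 51670 gene tests (0.0228% in activated T cells and 0% in each of the others), with 0 at an unadjusted p under 0.05 and 0 by DESeq2. In 9 epithelial clusters 0 of 22 pairs were called, against 0% of 39849 gene tests; DESeq2 called 0, and 2 pairs passed 0.05 before adjustment.

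In epithelium the log2 fold change of KO-labelled over WT-labelled mice was -0.16 ± 0.25 for Areg, -0.14 ± 0.28 for Hbegf, -0.15 ± 0.17 for Tgfa, -0.02 ± 0.39 for Egf and -0.01 ± 0.20 for Btc (SE; edgeR). Without WT-labelled mouse 8 the values of Areg and Hbegf were 0.10 and 0.21. Areg was at -0.06 ± 0.43 in T cells, 0.30 ± 0.35 in ILC2 and 0.01 ± 0.31 in Tregs. In CD90-pos, Igfbp3 fibroblasts Ereg was at 0.41 ± 0.31 and Nrg1 at 0.16 ± 0.53, and Nrg1 was at -0.93 without KO-labelled mouse 7 and -0.13 without WT-labelled mouse 8. In all fibroblasts Ereg was at 0.03 ± 0.83 and Nrg1 at 0.16 ± 0.97, the widest errors of any tested ligand and set, and Nrg1 was at -1.31 without KO-labelled mouse 7, -0.22 without WT-labelled mouse 1, -0.09 without WT-labelled mouse 4 and 1.47 without WT-labelled mouse 5. In the tested classes where Areg was low, macrophages, fibroblasts and B cells, its log2 fold change was below 0: -1.11 ± 0.63 in macrophages, -0.75 ± 0.54 in fibroblasts and -0.61 ± 0.52 in B cells. In fibroblasts all 5 epithelial markers were below 0 as well, at -0.995 ± 0.54 for Epcam, -0.98 ± 0.48 for Cdh1, -0.96 ± 0.41 for Krt8, -0.94 ± 0.39 for Lgals4 and -0.68 ± 0.43 for Krt18. None of these passed the test, and their part in the Areg value was not tested. In cluster 14 Areg had 0.56 ± 0.22 with an unadjusted p of 0.0244 and an adjusted p of 1 by edgeR, from 189, 172, 144 and 193 CPM in KO-labelled mice 2, 3, 6 and 7 against 68.2, 116, 162 and 126 CPM in WT-labelled mice 1, 4, 5 and 8, which overlapped. The other pair below 0.05 before adjustment was Hbegf in cluster 10, at 0.82 ± 0.39 with an adjusted p of 0.999 by edgeR; both pairs are named because of their values.

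**Figure D5:**
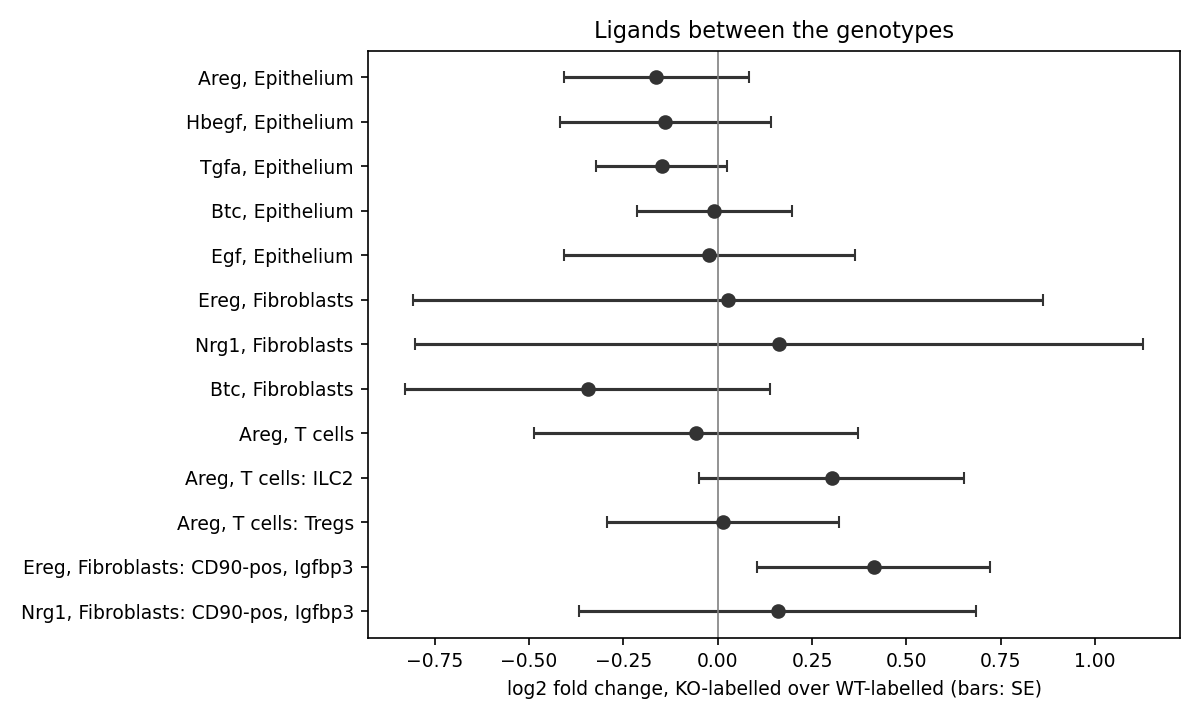
Log2 fold change of each ligand, KO-labelled over WT-labelled mice (horizontal axis), in the cell sets where it was mainly measured (rows), as points with SE bars from edgeR's quasi-likelihood fit. All 13 values lie within 1 of 0, and 0 of them passed the test.

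For single ligand levels, a two-sided exact permutation test used all assignments of the mice with 20 or more cells of a set. In 54 tests these were the 70 assignments of 4 mice against 4, in 12 the 35 of 4 against 3 and in 2 the 35 of 3 against 4, for which the smallest exact p is 0.0286. In 5 they were the 20 assignments of 3 against 3, for which the smallest exact p is 0.1, so that these could not pass 0.05. Among 21 tests of a ligand in a class, 24 in a subtype and 28 in a cluster, 0 had p under 0.05, and the lowest values were 0.2, 0.114 and 0.0571. The groups overlapped in all 21 class sets and all 24 subtype sets, where 2.03% and 2.77% of all gene tests did not overlap. They did not overlap in 1 of the 28 cluster sets (2.6% of all gene tests), Hbegf in cluster 18, at 72.8, 73.3 and 78.5 CPM in KO-labelled mice 3, 6 and 7 against 15.3, 65.9, 35.8 and 46.5 CPM in WT-labelled mice 1, 4, 5 and 8. Those values rest on 62 UMIs in all, and 11.6% of the 1164 genes tested in cluster 18 did not overlap either. Of the class that supplied most of each ligand, the share of UMIs was compared as well, for 7 ligands. Fibroblasts held 95, 91.9, 91.3 and 93.4% of the Ereg UMIs in KO-labelled mice 2, 3, 6 and 7, against 60, 87.6, 76.5 and 71.4% in WT-labelled mice 1, 4, 5 and 8. The groups did not overlap, with means of 92.9 ± 1.67% for the KO label and 73.9 ± 11.5% for the WT label (exact permutation p = 0.0286, the smallest it can give; adjusted p = 0.2 over the 7 ligands). How often the groups do not overlap in such a share over all genes was not computed. The lowest share, 60% in WT-labelled mouse 1, rests on few Ereg UMIs. Epithelium held 2.66 ± 3.01% of Ereg UMIs under the KO label and 21.4 ± 15.3% under the WT label, and myofibroblasts 4.31 ± 2.38% and 4.59 ± 5.99%. Ereg in epithelium was at a level of 0.65 ± 0.50 CPM under the KO label and 1.20 ± 0.48 CPM under the WT label (exact permutation p = 0.2). The fibroblasts recovered numbered 785, 1114, 853 and 1109 in KO-labelled mice 2, 3, 6 and 7 and 397, 832, 984 and 188 in WT-labelled mice 1, 4, 5 and 8, and their part in the shares was not tested. For Areg the epithelial share was 79.4 ± 12.1% under the KO label and 90.8 ± 4.91% under the WT label (exact permutation p = 0.229).

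Receptors, sheddases and inhibitors of the pathway were read from a list of 24 genes. Egfr, the receptor of most of these ligands, was at 83.6 ± 17.2 CPM in fibroblasts and 16.4 ± 1.32 CPM in epithelium (SD, n = 8 each). Erbb2 and Erbb3, receptors that pair with each other, were at 73.5 ± 8.24 and 106.2 ± 14.5 CPM in epithelium. Rhbdl2, a rhomboid protease, was at 67.3 ± 11.8 CPM in epithelium, and Adam17, the main sheddase of the family, was at 61.1 ± 5.78 CPM in fibroblasts and 18.1 ± 2.76 CPM in epithelium. Errfi1, an inhibitor of EGFR that its signalling induces, averaged 230.5 ± 73.7 CPM in epithelium of KO-labelled mice and 215.0 ± 52.3 CPM in WT-labelled mice (log2 fold change 0.11 ± 0.16). Among the other neuregulins of the list, Nrg2 had 359 UMIs in plasma cells, at 14.8, 16.6, 18.1 and 13.6 CPM in KO-labelled mice 2, 3, 6 and 7, against 26.0, 16.7, 17.4 and 29.9 CPM in WT-labelled mice 1, 4, 5 and 8. Mature B cells, of the same class, had 0.45 ± 0.56 CPM of Nrg2. Immediate early genes, which respond to EGFR signalling and to tissue dissociation, had a sum over 9 genes of 6797 ± 2547 CPM in the epithelium of KO-labelled mice and 6721 ± 3214 CPM in that of WT-labelled mice (exact permutation p = 0.971), and of 24337 ± 2079 CPM and 20584 ± 1811 CPM in fibroblasts (exact permutation p = 0.0571, n = 4 each). In the 106 gene and class pairs of the list, 0 rose and 0 fell in edgeR's test (lowest adjusted p = 0.995; 3 had an unadjusted p under 0.05, namely Dusp1 in endothelium at -0.78 ± 0.28, Nr4a1 in fibroblasts at 0.91 ± 0.32 and Junb in lymphatics at 0.57 ± 0.21 on the log2 scale), in the classes whose shares of called genes are given above. In epithelium the median log2 fold change was 0.17 for the 3 receptors tested, 0.04 for the 5 shedding genes, -0.15 for the 3 inhibitors and 0.04 for the 9 immediate early genes, against 0.0022 over all genes.

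To see which genes were distributed like each ligand, the mean log2(CPM + 10) over 24 cell types was correlated across types for 15622 genes, a description over types that share libraries. Bmp5, a bone morphogenetic protein, and Adamdec1, a metalloprotease-like protein, were among the 3 genes most like Ereg (Pearson r = 0.99 and 0.98), with Tram1l1 (0.99). Aldh1a2, which makes retinoic acid, was most like Nrg1 (r = 0.95), followed by Arhgap22 (0.94) and the complement gene C4b (0.92). Tgfa was nearest to B3gnt3 (0.95), Tox3 (0.94) and Mmp15 (0.93), and Hbegf to B3gnt3 and Plpp2 (0.91 each) and the vitamin D receptor Vdr (0.90). Egf was nearest to Cbln3 (0.93), Sval3 (0.91) and Ptprn2 (0.89), and Btc to Slc6a7 (0.90), tissue factor F3 (0.84) and Capn8 (0.83). No gene came as near to Areg, whose nearest was Mgat5 (0.81), followed by Adck5 and Ipmk (0.78 each). By Spearman correlation many of these genes ranked far lower, such as Adamdec1 (rho = 0.61, rank 1052) for Ereg, Capn8 (0.36, rank 2420) for Btc, Cbln3 (0.47, rank 426) for Egf, Aldh1a2 (0.69, rank 221) for Nrg1 and B3gnt3 for Hbegf (0.71, rank 186) and Tgfa (0.70, rank 259). Mgat5 for Areg, Tox3 for Tgfa and Arhgap22 for Nrg1 ranked 1 by Spearman correlation. Between ligands, r was 0.85 for Hbegf and Tgfa, 0.77 for Ereg and Nrg1, 0.52 for Areg and Hbegf and -0.18 for Areg and Ereg.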

How the data were processed

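Droplet-based libraries of transcript 3′ ends were made from 8 mice on 1 day, per the labels' protocols, after digestion of the mucosa and removal of annexin V-positive cells. Cell Ranger 3.0.2 and mm10 are named by the submitters' processing notes, and the software behind the cell filter, clusters and names is not stated there. The authors deposited counts of UMIs without normalization, for 31053 genes and 53080 cells of 500 to 113660 UMIs. A ratio, the size factor of each cell (its UMI total divided by the geometric mean over cells), and UMAP coordinates, a score that was not used, are in the deposited cell table. The size factors matched the matrix for 53080 cells (tolerance 1e-06) after sorting by mouse and barcode, against 16 in the order of the table, so the sorted order was used.

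The 1316 cells named doublets were left out. UMIs were summed per mouse and cell set. Sets with 20 or more cells in at least 3 mice per group were tested on the summed counts with edgeR 4.0.16 (TMM, filterByExpr, quasi-likelihood; R 4.3.3) over all genes, with Benjamini-Hochberg adjustment. The scripts were tested on simulated data. DESeq2 1.42.0 and the alternatives given under the processing were run beside it. Single values were tested by exact permutation over mice, which are the replicates. Positions came from GENCODE M21. A share of cells with a UMI is also given for cells thinned to 1000 UMIs, as the mean over all draws. Free RNA was not measured. A ligand's level outside its main class, in percent of the level there, was set beside that of 5 epithelial or 5 fibroblast markers. Shares of UMIs were tested for the class that supplied most of a ligand, which for Ereg and Btc was not the class with the highest level. Limits for counts of 0 are 3 UMIs and cover counting error only. For each ligand of 50 or more UMIs, the 3 genes of highest Pearson correlation over types of 50 or more cells were named. The other steps ran in Python 3.11.15 (scipy 1.17.1, pandas 2.3.3). The ligands, gene lists and tests were chosen with earlier results of these data known.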

Additional observations from a re-analysis of the deposited data

Results flagged for a closer look

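Of 23 groups of 4 mice whose ligand levels were examined for a mouse far from the others, 1 stood out, and chance alone marks about 1 in 20 such groups. It was Nrg1 in CD90-pos, Igfbp3 fibroblasts of KO-labelled mouse 7, at 118.3 CPM, where the other KO-labelled mice had 22.5 to 25.6 CPM. The gap made up 0.968 of the range, past Dixon's 95% critical value of 0.829 for 4 samples. In the same mouse 34 of 349 such cells held Nrg1, and Ereg in these cells was also highest of the 7 mice used, at 256.4 CPM.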

How the results depend on the processing

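Of 175 alternative fits of the fold change of a ligand or Spry2, 0 passed an adjusted p of 0.05 (lowest 0.837), and 35 changed sign; leaving out a mouse called 0 ligands. With DESeq2 the sign changed for Btc in epithelium (0.0014) and Ereg in fibroblasts (-0.28), with doublets kept for Ereg in fibroblasts (-0.0143), with cells under 50% mitochondrial UMIs (0.036) and cells whose barcode occurs in 1 library (0.0237) for Btc in epithelium, and with a term for mice 1 to 4 against 5 to 8 for Nrg1 in fibroblasts (-0.0894). Leaving out each mouse gave ranges that cross 0: in epithelium -0.32 to 0.10 for Areg, -0.31 to 0.21 for Hbegf, -0.15 to 0.0704 for Btc, -0.29 to 0.23 for Egf and -0.61 to 0.0682 for Spry2, in fibroblasts -0.59 to 0.96 for Ereg and -1.31 to 1.47 for Nrg1, in CD90-pos, Igfbp3 cells -0.93 to 0.58 for Nrg1, and for Areg -0.57 to 0.43 in T cells and -0.26 to 0.29 in Tregs. Counts of all genes called changed without a filter to 45 in endothelium, 22 in lymphatics, 37 in macrophages and 14 in T cells, and in lymphatics to 2 by DESeq2 and 8 with the term for mice; leaving out a mouse gave 0 to 7 in endothelium, 0 to 8 in lymphatics and 3 to 7 in macrophages. Outside the mitochondrial genome the epithelial levels were 444 CPM for Areg, 628 for Hbegf, 18.6 for Tgfa and 2.94 for Egf, and Egf was at 1.15 as a mean of single cells and 2.54 in cells under 50% mitochondrial UMIs. With equal weight per class, epithelium supplied 47.8% of Areg, 66.5% of Hbegf, 38.2% of Tgfa, 42.7% of Btc and 21.1% of Egf, and fibroblasts 34.0% of Ereg. Shares of cells with a UMI at 500 UMIs, at 2000 UMIs and not thinned were 8.26, 28.0 and 27.1% for Areg, 0.433, 2.22 and 5.10% for Tgfa and 0.0571, 0.314 and 0.744% for Egf in epithelium, 5.09, 16.6 and 23.1% for Ereg in myofibroblasts and 0.241, 0.964 and 1.78% for Btc in fibroblasts; Hbegf had 35.3% at 2000 UMIs and 31.5% not thinned, and Nrg1 1.91% not thinned. A further 355 values of levels, shares and counts under an alternative stayed within the spread over mice, or within 1.5 times for a count. The cause was not tested. Ligands with few UMIs, Epgn above all, are limited by depth. No paired analysis was possible because the groups share no replicate numbers.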
